A study of Mus musculus with 34 samples.

Results

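KDM5A is a histone demethylase that removes methyl groups from lysine 4 of histone H3, a mark that is highest as trimethylation at active gene starts. Together with KDM5B and KDM5C it belongs to the KDM5 family, and its ARID domain is known to bind the DNA letters CCGCCC. 3T3-L1 is a mouse preadipocyte line that turns into fat cells after a hormone cocktail, in which glucocorticoid and cAMP signals act early on distal enhancers, and the adipocyte genes come on later. Chromatin immunoprecipitation with sequencing (ChIP-seq) counts the DNA fragments that come down with an antibody, so a high tag count at a region means that KDM5A, or a protein held with it, was crosslinked there.

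The data described here are the KDM5A ChIP libraries of day 2 (2 libraries) and of 4 hours (2 libraries), with an input library of unselected chromatin as background, 5 of the 34 samples of the series. The columns of the deposited KDM5A table that carry these names were taken as they stand. Post-confluent 3T3-L1 cells received dexamethasone, insulin, IBMX and fetal bovine serum at day 0. The medium was changed to serum and insulin at day 2, and whether the day 2 cells were taken before or after that is not given in the sources used here. Chromatin of all groups was fixed with disuccinimidyl glutarate and formaldehyde, and no knockdown virus is stated for the KDM5A samples. A pair of day 0 libraries, taken before induction, entered the fit and is given where it adds to the comparison. The RNA values set beside KDM5A come from other cultures of the same line, which carried a control shRNA against luciferase (shLuc). The cells are bulk cultures, so more cells with KDM5A at a site and more KDM5A per cell cannot be told apart.

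The table holds 87525 merged peaks. Peaks within 1000 bp of the nearest gene start numbered 11573 (13.2%) and are called promoter peaks, and the other 75952 are called distal peaks. A peak is named by its nearest gene, which need not be the gene it acts on. Values are tags, meaning reads in the peak scaled to a common library total, taken here as 10000000 reads, the default of the HOMER software, and the log2 change of a peak is the day 2 mean minus the 4 hour mean of log2(tags + 1). A peak was called changed at an adjusted p under 0.05 in limma, fitted to all 87525 peaks and 6 KDM5A libraries. With 3 residual degrees of freedom, limma gave full weight to the trend of variance over all peaks. A standard error is therefore the trend value for the mean level of the peak, and the spread of that peak's own replicates does not enter it.

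Promoter DNA of 6 genes is shown as examples from the groups described below: Adipoq, Retn and Plin1 gained KDM5A, Rpl14 is an example of a CpG-rich promoter with a strong peak, and Ifit3 and Isg15 are interferon genes with lower KDM5A values at day 2 that did not pass the test. Each line is the 250 bases before the RefSeq gene start in GRCm38.p6, on the gene's strand, while the peaks are on mm9, so the 2 sets of positions cannot be compared. Capitals mark a match to CCGCCC or to CCAAT or to GAAANNGAAA on either strand.
Adipoq: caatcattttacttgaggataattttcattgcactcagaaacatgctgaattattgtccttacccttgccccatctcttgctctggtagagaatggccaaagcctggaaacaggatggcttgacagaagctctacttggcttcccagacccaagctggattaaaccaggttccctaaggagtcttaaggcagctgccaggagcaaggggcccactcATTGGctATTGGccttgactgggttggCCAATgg
Retn: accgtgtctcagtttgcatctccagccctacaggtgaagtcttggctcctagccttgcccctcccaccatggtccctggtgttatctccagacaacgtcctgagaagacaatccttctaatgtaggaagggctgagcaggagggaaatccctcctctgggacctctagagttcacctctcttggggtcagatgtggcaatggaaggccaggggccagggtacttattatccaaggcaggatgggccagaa
Plin1: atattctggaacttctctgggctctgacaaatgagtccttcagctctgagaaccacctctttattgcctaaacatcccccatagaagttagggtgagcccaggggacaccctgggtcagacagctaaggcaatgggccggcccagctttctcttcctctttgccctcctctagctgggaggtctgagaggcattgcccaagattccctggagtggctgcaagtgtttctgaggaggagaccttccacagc
Rpl14: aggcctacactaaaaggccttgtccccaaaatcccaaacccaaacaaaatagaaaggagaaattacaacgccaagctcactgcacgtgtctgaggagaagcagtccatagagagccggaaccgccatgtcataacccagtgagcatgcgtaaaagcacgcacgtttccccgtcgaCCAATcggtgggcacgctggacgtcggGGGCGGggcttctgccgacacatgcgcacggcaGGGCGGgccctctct
Ifit3: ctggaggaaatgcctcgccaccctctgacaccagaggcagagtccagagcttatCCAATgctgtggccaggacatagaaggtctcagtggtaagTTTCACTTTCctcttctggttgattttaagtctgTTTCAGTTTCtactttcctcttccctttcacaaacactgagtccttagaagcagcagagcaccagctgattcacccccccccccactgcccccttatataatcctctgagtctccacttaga
Isg15: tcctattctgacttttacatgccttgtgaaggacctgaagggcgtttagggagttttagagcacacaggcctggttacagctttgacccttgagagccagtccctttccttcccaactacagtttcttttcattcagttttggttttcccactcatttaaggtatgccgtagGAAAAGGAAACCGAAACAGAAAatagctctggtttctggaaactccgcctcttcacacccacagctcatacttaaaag
The windows lie at chr16:23146286-23146535 (+ strand) for Adipoq, chr8:3655520-3655769 (+ strand) for Retn, chr7:79732777-79733026 (- strand) for Plin1, chr9:120571267-120571516 (+ strand) for Rpl14, chr19:34583279-34583528 (+ strand) for Ifit3 and chr4:156200819-156201068 (- strand) for Isg15.

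The Adipoq window held 0 CpG, that of Retn 2 and that of Plin1 1, and none of the 3 held CCGCCC. Rpl14 had 18 CpG and 2 matches to CCGCCC. Ifit3 had 1 CpG and Isg15 4, without CCGCCC, and the promoters called lower had a median of 3 CpG (7 with a sequence) against 1.5 in those called higher (4 with a sequence), so low CpG did not separate gains from losses. Ifit3 had 2 matches and Isg15 3 overlapping matches to GAAANNGAAA, the core of the element that interferon-activated factors are known to bind. That motif was added to the search after the interferon values had been seen. It was in 3.11% of the 22862 promoters of genes with 1 entry, against 32.4% for CCGCCC.

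The libraries differed in depth. With the assumed total of 10000000 tags, the day 2 libraries had 4.41 and 12.9 M reads (M, 1e6) in replicates 1 and 2, the 4 hour libraries had 11.9 and 3.87 M reads, and the input 11.1 M reads. Of these reads, 42.5% and 32.2% lay in the peaks at day 2, 38.1% and 26.8% at 4 hours, and 2.61% in the input. A count of 0 allows up to 6.81 and 2.32 tags in the day 2 libraries and 2.51 and 7.75 tags in the 4 hour libraries, for counting error only. Replicates of 1 time differed by more than counting error allows, as the chi-square of their reads over its degrees of freedom was 3.41 at day 2 and 4.17 at 4 hours. The labels number the experiments but do not say whether cultures were separate, so p-values refer to these samples only. The spread they use is the typical one at a peak's level, not that of the named peak's replicates. Day 2 replicate 1 stood apart at 620 peaks, 614 of them distal, where it was over 5 times replicate 2 after 5 tags were added to both. Its median there was 56.7 tags against 2.32 in replicate 2, and 19 of the distal peaks called higher at day 2 were of this kind. At the 87 of these 620 peaks that overlapped a KDM5C peak, KDM5C had medians of 44.1 and 7.38 tags in replicates 1 and 2, against 16.97 and 7.38 tags over all KDM5C peaks. In 4 hour replicate 2 the same excess appeared at 518 peaks.

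RNA markers were read in the shLuc cultures. Fabp4, which encodes a fatty acid carrier of adipocytes, was at 14.2 and 14.3 at day 2 and at 9.64 and 9.64 at 4 hours, as log2 tags per kb. Dlk1, a preadipocyte marker, was at 10.2 and 9.45 at day 2 and at 12.8 and 12.4 at 4 hours. Pdgfra, also a preadipocyte marker, went the other way, at 9.88 and 8.94 at day 2 and at 8.92 and 8.84 at 4 hours. The macrophage marker Ptprc lay between -5.57 and -5.34 in all 4 libraries.

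Promoter and distal peaks moved apart between the times. Within each library, 71.2% and 66.7% of the tags in peaks lay in promoter peaks at day 2, against 65.8% and 59.1% at 4 hours. Both day 2 libraries were above both 4 hour libraries, with means of 69.0% ± 3.18 at day 2 and 62.4% ± 4.74 at 4 hours (SD, n = 2 each), a difference of 6.53 percentage points. The input had 52.7%. Day 0, with 72.3% and 64.9%, spanned the day 2 values and reached into the 4 hour range. These shares need no scaling between libraries, but the libraries also differed in the share of reads that lay in peaks. Among the compared libraries, that share was highest in day 2 replicate 1 (42.5%) and lowest in 4 hour replicate 2 (26.8%). The same 2 libraries had the highest and the lowest promoter share. The part of this in the difference was not tested.

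The same held for the median peak. Among peaks with a mean of at least 20 tags over the 6 KDM5A libraries, 9506 promoter and 10716 distal peaks, the median log2 promoter level exceeded the median log2 distal level by 2.88 and 2.63 at day 2 and by 2.20 and 1.74 at 4 hours. The input gap was 1.40, and the day 0 gaps were 2.84 and 2.22. With 2 libraries a group, the smallest two-sided p of an exact permutation test is 0.333, so no such test can pass 0.05.

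**Figure D1:**
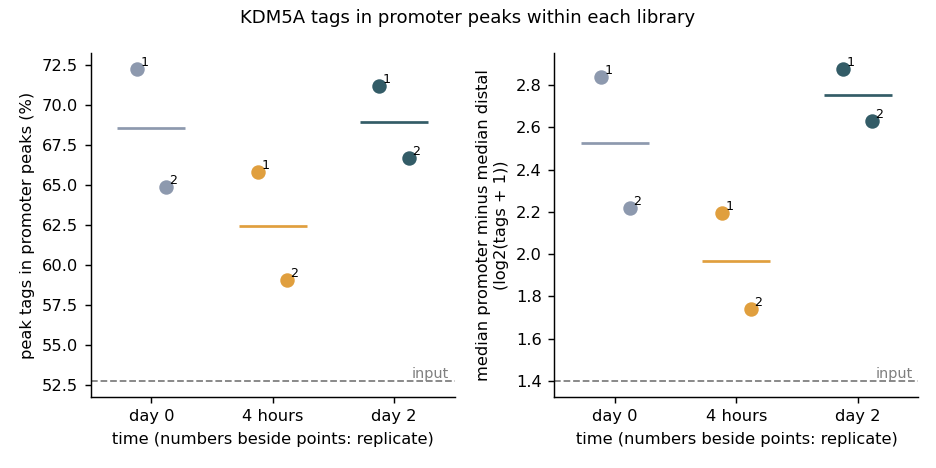
KDM5A tags in promoter peaks within each library: on the left the share of peak tags in promoter peaks (%), on the right the median log2(tags + 1) of promoter peaks minus that of distal peaks with at least 20 tags. Points are libraries with their replicate number, short lines are group means, the dashed line is the input; both day 2 points lie above both 4 hour points in each panel, at 71.2% and 66.7% against 65.8% and 59.1% on the left.

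The median promoter peak had 209 and 157 tags at day 2 and 187 and 106 tags at 4 hours, with 11.7 in the input. The values overlapped, since day 2 replicate 2 was below 4 hour replicate 1. The median log2 change of all promoter peaks was 0.36, which is less than the spread between replicates (SD 0.45 for this median). It ranged from -0.22 to 0.93 over the 4 pairings of a day 2 with a 4 hour library and was -0.01 without 4 hour replicate 2. Among the 9506 promoter peaks of at least 20 tags, 84.1% had a positive log2 change, with a middle range (25th to 75th percentile) of 0.13 to 0.58. Both day 2 libraries were above both 4 hour libraries at 15.7% of these peaks and below both at 4.78%.

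Distal peaks of at least 20 tags went the other way. Their median was 34.1 and 30.2 tags at day 2 and 48.6 and 38.8 tags at 4 hours, with 4.50 in the input, and the day 2 values lay below both 4 hour values. The median log2 change was -0.34, with a middle range of -0.89 to 0.18, and it was negative in each of the 4 pairings, from -0.58 to -0.07, and under each of the 18 alternative settings, from -0.51 to -0.14. Both day 2 libraries were below both 4 hour libraries at 41.7% of these peaks and above both at 10.4%. Over all 75952 distal peaks, most of them weak, the median log2 change was 0.09.

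The change of sign lay just beyond the promoter limit. The median log2 change was 0.37 within 100 bp of a gene start, 0.38 from 100 to 300 bp and 0.32 from 300 to 1000 bp. Just outside the limit, from 1000 to 3000 bp, it was -0.01. It was -0.32 from 3000 to 10000 bp, -0.39 from 10000 to 50000 bp and -0.50 beyond 50000 bp. Peaks also weakened over these bins, with median tags of 213 in the nearest bin and 31.0 in the farthest. The share that overlapped an H3K4me3 peak was 98.98% in the nearest bin, 63.9% from 1000 to 3000 bp and 0% beyond 10000 bp. The deposited H3K4me3 peaks are those at promoters, so their choice sets this fall, and it does not show whether distal sites lack the mark.

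**Figure D2:**
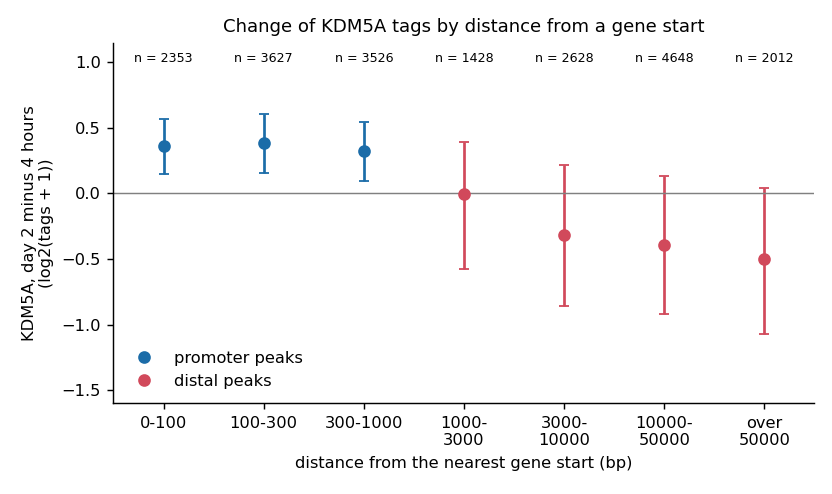
Log2 change of KDM5A (day 2 minus 4 hours, log2(tags + 1)) by distance from the nearest gene start, for peaks with a mean of at least 20 tags. Points are medians, bars run from the 25th to the 75th percentile and n is the number of peaks; the medians of the 3 promoter bins lie between 0.32 and 0.38, and those of the 4 distal bins between -0.50 and -0.01.

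Strong distal peaks had changes like those of promoters. The 6443 distal peaks of 20 to 40 mean tags had a median log2 change of -0.51, the 2683 of 40 to 80 tags -0.35 and the 928 of 80 to 160 tags -0.01. The 464 distal peaks of 160 to 320 tags were at 0.23 and the 198 above 320 tags at 0.27. Promoter peaks ran from 0.01 in the 536 weakest (20 to 40 tags) to 0.39 in the 2175 strongest (over 320 tags). Distal peaks stayed below promoter peaks of the same tag range in each of the 5 ranges.

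**Figure D3:**
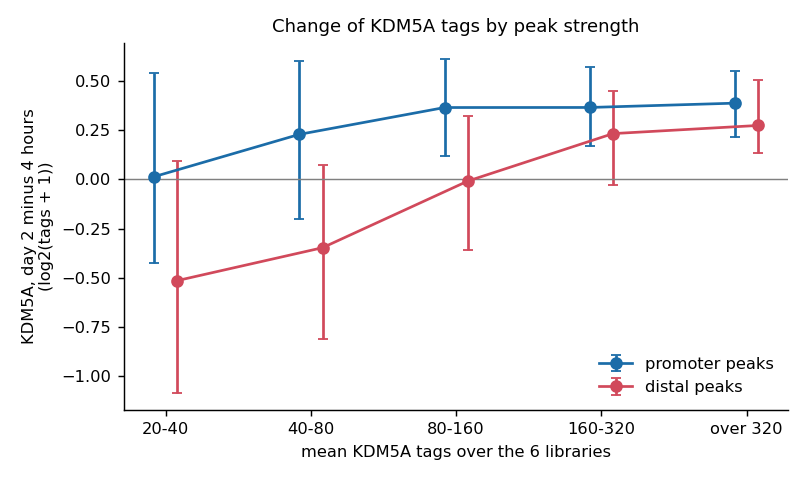
Log2 change of KDM5A (day 2 minus 4 hours, log2(tags + 1)) by the mean tags of the peak over the 6 KDM5A libraries. Points are medians and bars run from the 25th to the 75th percentile; the distal median is -0.51 in the weakest range and 0.27 in the strongest, the promoter median 0.01 and 0.39.

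H3K4me3 overlap separated the medians in both classes, and KDM5C overlap in distal peaks. Distal peaks that overlapped an H3K4me3 peak by at least 1 bp (1085) had a median log2 change of 0.14, and those without (9631) of -0.41. Promoter peaks with an H3K4me3 peak (9303) were at 0.36 and the 203 without were at -0.28. Distal peaks that overlapped a KDM5C peak (1506), mapped at day 2 alone, were at 0.08, and those without (9210) at -0.41. Promoter peaks were at 0.35 with a KDM5C peak (1998) and at 0.36 without (7508). Overlapping distal peaks were also stronger, with median tags of 85.02 with and 32.7 without H3K4me3, and 42.1 with and 33.2 without KDM5C. Distal overlap with these promoter H3K4me3 peaks also followed distance, at 63.9% from 1000 to 3000 bp, 6.54% from 3000 to 10000 bp and 0% beyond. The parts of strength and distance in the change were not tested.

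Few single peaks passed the test. In limma, 108 of 87525 peaks (0.123%) were higher and 423 (0.483%) lower at day 2. Promoters gave 10 higher (0.0864% of 11573) and 12 lower (0.104%), and distal peaks gave 98 higher (0.129% of 75952) and 411 lower (0.541%). Of the distal peaks with at least 20 tags, 51 (0.476%) were higher and 218 (2.03%) lower. At an unadjusted p under 0.05 there were 377 promoter and 9215 distal peaks.

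These counts depend on the processing. Centring each library on its median gave 442 promoter peaks higher and 47 lower, quantile normalization gave 300 and 121, and for distal peaks edgeR with library totals gave 305 higher and 279 lower, so the split between directions is not settled by these data. Without day 2 replicate 1 the calls were 13 in all, without 4 hour replicate 2 they were 41, and DESeq2 gave 25. Libraries thinned to equal depth gave 0 calls in limma (6836 at an unadjusted p under 0.05), as did limma without the variance trend (10200 at an unadjusted p under 0.05).

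Peaks are named below if they were called, had no overlap between the times and a mean of at least 20 tags over the 4 libraries. Among these, the promoters that gained most KDM5A included genes of the mature fat cell. Adipoq encodes the fat cell hormone adiponectin. Its peak had 63.5 and 72.7 tags at day 2, against 12.6 and 5.17 tags at 4 hours and 7.2 in the input. The groups did not overlap, and the 4 hour values were near the input. The log2 change was 2.91 (SE 0.63, limma adjusted p 0.00400), and the Adipoq RNA was at 9.27 and 10.4 at day 2 and at 3.39 and 3.26 at 4 hours. KDM5C had 163 and 94.7 tags there at day 2. The peak lies at chr16:23145153-23147958 (mm9) and spans the start.

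Plin1 encodes perilipin-1, a coat protein of lipid droplets. Its peak (chr7:86876507-86878005, mm9) had 54.5 and 39.4 tags at day 2, against 4.19 and 7.75 tags at 4 hours and 4.50 in the input. The lower day 2 library was still above both 4 hour libraries, with a log2 change of 2.81 (SE 0.71, limma adjusted p 0.0234). Retn encodes resistin, a further secreted factor of mouse fat cells. Its peak (chr8:3654107-3658100, mm9) had 161 and 104 tags at day 2, against 41.9 and 12.9 tags at 4 hours and 15.3 in the input. The groups were apart here as well, although 4 hour replicate 1 was above the input, and the log2 change was 2.41 (SE 0.57, limma adjusted p 0.0123). RNA was higher by 6.30 for Plin1 and by 6.31 for Retn on the log2 scale.

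The other promoters with the largest gains were less alike. Ppp1r1b, which encodes the phosphatase inhibitor DARPP-32, had 43.1 and 36.3 tags at day 2, against 16.8 and 0 tags at 4 hours. Its log2 change of 3.27 (SE 0.77, limma adjusted p 0.0128) leaned on 4 hour replicate 2 and was 1.19 without it. Gpt, which encodes an alanine aminotransferase, had 45.4 and 30.2 tags at day 2, against 5.02 and 2.58 tags at 4 hours. The 4 hour values were at the level of the input (4.50), and the log2 change was 3.03 (SE 0.76, limma adjusted p 0.0216). Trak1, an adaptor for mitochondrial transport, had 97.6 and 60.3 tags at day 2, against 35.2 and 2.58 tags at 4 hours. The 4 hour libraries disagreed widely, and the log2 change of 2.77 (SE 0.61, limma adjusted p 0.00552) was 1.10 without 4 hour replicate 2. Gm6277 completes the 6 highest, at 2.51 (SE 0.63, limma adjusted p 0.0206), and was at 1.18 without 4 hour replicate 2. RNA was higher by 4.39 for Ppp1r1b, 2.23 for Gpt, 1.149 for Trak1 and 0.92 for Gm6277 on the log2 scale.

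The promoter peaks of this kind that lost most KDM5A were narrow. Ctla2a, which encodes an inhibitor of cysteine proteases, had 6.81 and 9.28 tags at day 2, against 55.3 and 38.8 tags at 4 hours and 3.6 in the input. The groups were far apart, with a log2 change of -2.40 (SE 0.61, limma adjusted p 0.0250), and the RNA was at 8.49 and 8.42 at day 2 and at 11.8 and 11.2 at 4 hours. Pla1a, a phospholipase gene, had 2.27 and 13.9 tags at day 2, against 50.3 and 38.8 tags at 4 hours. Both day 2 values were below the 4 hour ones, with a log2 change of -2.69 (SE 0.67, limma adjusted p 0.0190), and its RNA was lower by 3.25 on the log2 scale. Fam214b (-2.67), Ankmy1 (-2.75), 4933425B07Rik (-2.51) and the microRNA gene Mir1957b (-3.09) completed the 6 lowest, with limma adjusted p values of 0.0181, 0.0426, 0.0441 and 0.0127. Without day 2 replicate 1 Fam214b was at -1.70 and Pla1a at -1.597, and without day 2 replicate 2 4933425B07Rik was at -1.33, none of them called. The 10 promoter peaks called higher had a median width of 1828 bp and the 12 called lower of 657 bp. All promoter peaks of at least 20 tags had a median of 1803 bp. An H3K4me3 peak overlapped 6 of the 10 called higher and 3 of the 12 called lower, against 97.9% of all promoter peaks of at least 20 tags. Among called promoter peaks that also had at least 20 tags, it overlapped 5 of 7 higher and 2 of 9 lower. The called promoter peaks were also weak. Their median of mean tags over the 6 libraries was 30.3 for those higher and 22.5 for those lower, against 198 for all promoter peaks of at least 20 tags. The part of strength in width and overlap was not tested.

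**Figure D4:**
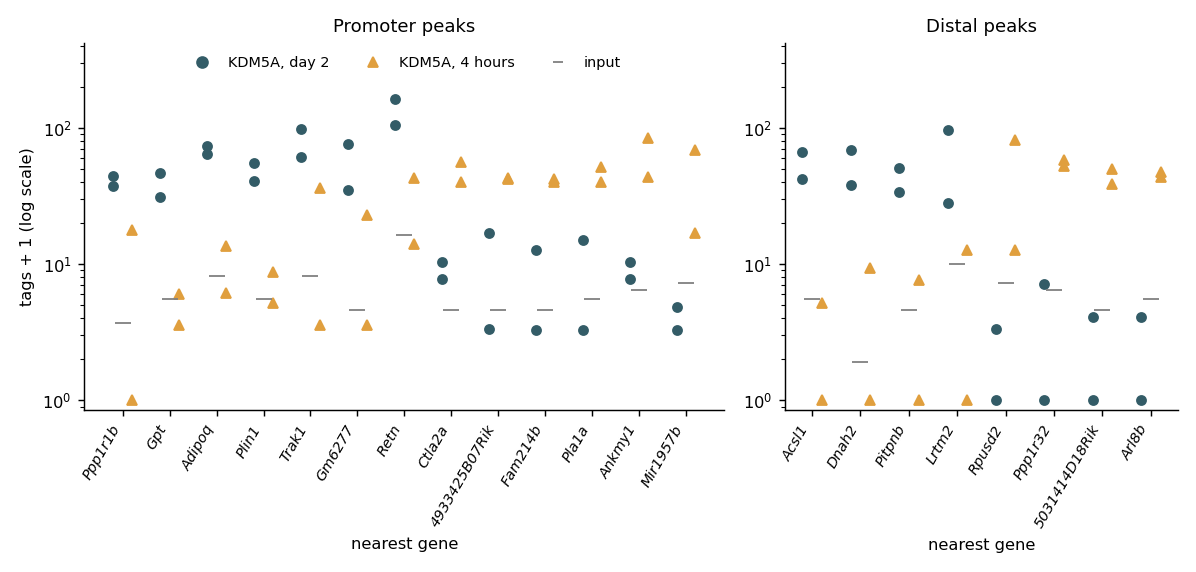
KDM5A tags (plus 1, log scale) at the called peaks with the largest changes, promoter peaks on the left and distal peaks on the right, by nearest gene and ordered by log2 change. Circles are the 2 day 2 libraries, triangles the 2 libraries of 4 hours and dashes the input; in each peak both circles lie on the same side of both triangles, as the choice of these peaks required, and Retn was added from the adipocyte list.

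The 98 distal gains lay near 91 genes, and 7 of them formed a single run. Between positions 47560672 and 47632212 of chromosome 8 (mm9), a span of 71.5 kb, 7 distal peaks were called higher, 4 nearest to Acsl1 and 3 nearest to Cenpu. No other stretch had 3 or more called distal peaks of 1 direction within 50 kb of each other, and this rule was set after the values had been seen. Acsl1 encodes an acyl-CoA synthetase that activates long-chain fatty acids for fat storage, and Cenpu a centromere protein. Summed over the 7 peaks there were 386 and 622 tags at day 2, against 93.0 and 41.3 tags at 4 hours and 52.2 in the input. All 8 distal peaks of at least 20 tags in the span had positive changes, and the called peaks ranged from 2.48 to 4.53 on the log2 scale.

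The largest of them, at chr8:47585754-47588314, lies 30.6 kb from the Acsl1 start. It had 40.9 and 64.9 tags at day 2, against 4.19 and 0 tags at 4 hours and 4.50 in the input, so the 4 hour values were at background. The log2 change was 4.53 (SE 0.83, limma adjusted p 3.82e-04). The Acsl1 promoter peak had 204 and 138 tags at day 2, against 205 and 95.6 tags at 4 hours, with overlapping groups and a log2 change of 0.26 (limma adjusted p 0.886). RNA was higher by 5.92 for Acsl1 and by 1.77 for Cenpu on the log2 scale. DESeq2 called 3 of the 7 peaks, and without day 2 replicate 1, day 2 replicate 2 or 4 hour replicate 2 none of the 7 passed, with log2 changes of at least 1.92 in each case.

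Further distal gains lay near Dnah2, Pitpnb and Lrtm2, with log2 changes of 4.07, 3.90 and 3.87 (limma adjusted p 0.00109, 0.00559 and 3.25e-04). Dnah2, a dynein gene, had 68.1 and 37.1 tags at day 2, against 8.37 and 0 tags at 4 hours. Pitpnb, which encodes a phosphatidylinositol transfer protein, had 49.9 and 32.5 tags at day 2, against 6.70 and 0 tags at 4 hours. Lrtm2 had 27.2 and 95.9 tags at day 2, against 11.7 and 0 tags at 4 hours. All 3 had low tags at 4 hours, and without 4 hour replicate 2 their log2 changes were 2.453, 2.42 and 2.04 and none was called. More widely, 4 hour replicate 2 was at 0 in 49 of the 98 distal peaks called higher. Where replicates had to lie within 5 times of each other, 74 of the 98 remained.

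The 411 distal losses lay near 394 genes. Arl8b encodes a small GTPase of lysosomes. Its peak, 30.5 kb from the start at chr6:108702017-108702993 (mm9), had 0 and 3.09 tags at day 2, against 42.7 and 46.5 tags at 4 hours and 4.50 in the input. The day 2 values were at the background of the input, and the log2 change was -4.49 (SE 0.75, limma adjusted p 7.85e-05), also called by DESeq2. Ppp1r32 had 0 and 6.18 tags at day 2, against 51.1 and 56.8 tags at 4 hours, and 5031414D18Rik had 0 and 3.09 tags at day 2, against 37.7 and 49.1 tags at 4 hours. Both also fell to about the input level (5.4 and 3.6 tags), with log2 changes of -4.36 and -4.44 (limma adjusted p 7.85e-05 and 2.20e-04). Rpusd2, the other peak among the 4 lowest, had 0 and 2.32 tags at day 2, against 11.7 and 80.1 tags at 4 hours, so its size rests on 4 hour replicate 2. RNA was lower by 3.00 on the log2 scale for 5031414D18Rik and by 0.05 for Arl8b. Day 2 replicate 1, where a count of 0 allows up to 6.81 tags, was at 0 in 141 of the 411 distal peaks called lower. With 1 replicate left out in turn, the weakest log2 changes were -3.48 for Arl8b, -3.43 for 5031414D18Rik, -2.93 for Ppp1r32 and -2.80 for Rpusd2.

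Of the genes near distal losses, 15 had more than 1. Lrtm1 had 3, with an RNA difference of 0.01. Mitf, a transcription factor gene, had 3 with log2 changes from -2.65 to -2.30, and Foxp1, Slit2 and Pax8 had 2 each. RNA was lower by 1.37 for Mitf, 2.26 for Foxp1 and 2.41 for Slit2 on the log2 scale, while that of Pax8 lay between -2.90 and -2.71 in all 4 libraries. RNA was higher by 0.65 for Prkar2a and by 0.43 for Dtwd1, with 2 losses each, so several losses did not go with lower RNA throughout. These examples were chosen after their values were seen.

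Called distal gains and losses differed in width, KDM5C and RNA. Gains had a median width of 1034 bp and losses of 650 bp. A KDM5C peak overlapped 45 of the 98 gains (45.9%) and 12 of the 411 losses (2.92%), against 14.1% of all distal peaks of at least 20 tags. Among called peaks that also had at least 20 tags, it overlapped 27 of 51 gains and 6 of 218 losses. Among gains whose replicates lay within 5 times of each other, 34 of 74 overlapped KDM5C (45.9%). An H3K4me3 peak overlapped 4 of the 98 gains and 10 of the 411 losses. With at least 20 tags these were 2 of 51 and 7 of 218, against 10.1% of all such distal peaks. KDM5C was mapped at day 2 alone.

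At day 0 most of these peaks stood between the other times. The log2 mean of day 0 lay between those of day 2 and 4 hours at 396 of the 411 distal losses and at 83 of the 98 distal gains. For the losses it was nearer to 4 hours at 282 peaks, and the median day 0 level was 1.13 below 4 hours on the log2 scale. For the gains it was nearer to 4 hours at 78 peaks. The peaks were chosen for their 4 hour and day 2 values, which sets part of this order.

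RNA of the nearest gene was compared between called gains and losses as a description of these libraries. Of the 66 genes with measured RNA nearest to a distal gain, 51 had a higher mean at day 2, with a median log2 difference of 0.78. Of the 273 nearest to a distal loss, 108 had a higher and 165 a lower mean, with a median of -0.25. Over all genes nearest to a distal peak of at least 20 tags, 43.5% had a higher mean and the median was -0.12, so the share at losses (39.6%) was near this background. Promoter peaks called higher had a higher RNA mean at 7 of 9 genes, and those called lower at 1 of 6, against 50.8% of all promoter genes.

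Across all measured genes the tie was weak. The strongest promoter peak of each of 9014 genes gave a Pearson r of 0.27 and a Spearman rho of 0.17 between the KDM5A change and the RNA change, and the strongest distal peak of 4572 genes gave 0.16 and 0.13, across genes that share libraries. The median KDM5A promoter change was 0.44 at the 931 genes whose RNA was higher by over 1 on the log2 scale, 0.38 at the 6891 within 1 and 0.17 at the 1192 lower by at least 1. Distal peaks had 0.06, -0.25 and -0.39 in the same order. With all libraries and the deposited scaling, most promoters of genes with lower RNA therefore still had a positive KDM5A change. The median of all promoter genes was 0.36 there and -0.01 without 4 hour replicate 2, so this sign is not settled.

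**Figure D5:**
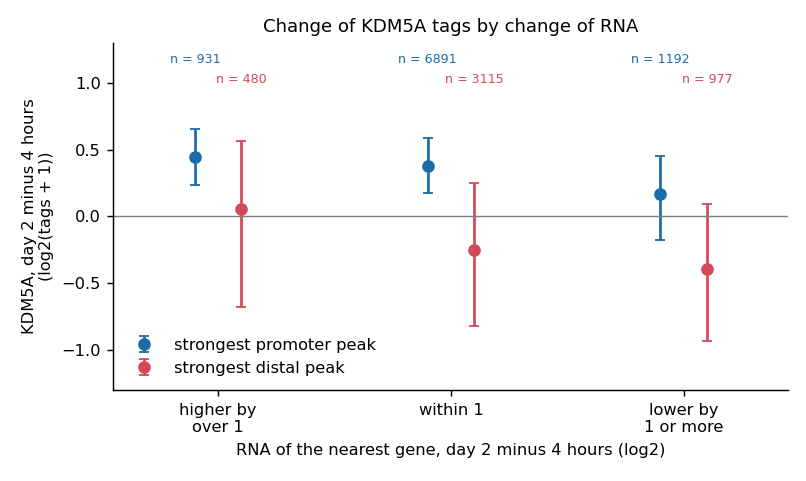
Log2 change of KDM5A (day 2 minus 4 hours, log2(tags + 1)) at the strongest promoter and the strongest distal peak of a gene, by the RNA change of that gene in shLuc cells. Points are medians, bars run from the 25th to the 75th percentile and n is the number of genes; promoter medians are 0.44, 0.38 and 0.17 and distal medians 0.06, -0.25 and -0.39.

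Gene lists were read from 1 promoter peak a gene, that with the most tags. Over all 11076 promoter genes, 10 were called higher and 11 lower, both day 2 libraries were above both 4 hour libraries at 16.9% and below both at 5.81%, and the median log2 change was 0.36.

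The lists were chosen with earlier results in view, and a median is given beside that of all promoter genes as a description. Of the 23 adipocyte genes with a promoter peak, 3 rose (Adipoq, Retn and Plin1) and 0 fell, 9 had both day 2 libraries above both 4 hour libraries, and the median was 0.64. Its distance to the median of all promoter genes was 0.28, but 0.03 without 4 hour replicate 2 and 0.04 among peaks of at least 20 tags. None of the 3 was called without day 2 replicate 1, day 2 replicate 2 or 4 hour replicate 2, with log2 changes of at least 1.60 in each case. Cidec, a lipid droplet protein, had 24.97 and 30.92 tags at its promoter at day 2, against 3.35 and 2.58 tags at 4 hours, and did not pass (log2 change 2.87, limma adjusted p 0.104). A distal Cidec peak 2.31 kb from the start, with 74.9 and 97.4 tags at day 2 and 26.8 and 7.75 tags at 4 hours, did (2.47, limma adjusted p 0.0145). Dgat2 (-0.05), Scd1 (0.06), Lpl (0.13) and Fasn (0.40), all genes of fat synthesis or uptake, did not pass. Of 51 distal peaks of the list with at least 20 tags, 5 rose and 1, near Lpin1, fell. Over all distal peaks of at least 20 tags, 0.476% were called higher and 2.03% lower. Of the 5 gains, 3 lay near Acsl1. The fifth gain, near Cav2, had 161 tags in day 2 replicate 1 and 7.73 in replicate 2, against 6.70 and 0 tags at 4 hours.

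Among 18 promoters of adipogenic factors none passed, and the median was 0.53, or 0.17 above that of all promoter genes, but 0.01 above it without 4 hour replicate 2. Zfp423, a factor that commits cells to the fat lineage, had 234 and 162 tags at day 2, against 127 and 43.9 tags at 4 hours (log2 change 1.36, limma adjusted p 0.356). Its distal peak 8.29 kb from the start rose, with 59.0 and 63.4 tags at day 2, against 17.6 and 7.75 tags at 4 hours (2.29, limma adjusted p 0.0380). So did a distal peak of Rxra, the partner receptor of PPARG, with 36.3 and 61.1 tags at day 2 against 25.1 and 2.58 tags at 4 hours (2.32, limma adjusted p 0.0460). These were the 2 called among 64 distal peaks of the list with at least 20 tags, against 0.476% called higher over all such distal peaks. The promoter peak of Pparg itself had 45.4 and 41.0 tags at day 2 and 26.8 and 23.3 tags at 4 hours, apart in every library but not past the test (0.77, limma adjusted p 0.628).

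The interferon list had a promoter median of -0.18 over 26 genes. It was the only one of the 17 lists below 0 with the deposited scaling and all libraries, while 9 were below 0 under quantile normalization and 11 without 4 hour replicate 2. None passed the test, 8 had both day 2 libraries below both 4 hour libraries and 3 above, and 9 of the 26 had a positive change. The list median turned to 0.07 without 4 hour replicate 1. Its difference from the median of all promoter genes lay between -0.71 and -0.32 over the 18 alternatives. Ifit3, an antiviral effector, had 2.27 and 2.32 tags at day 2, against 10.9 and 28.4 tags at 4 hours (log2 change -2.50, limma adjusted p 0.102). Isg15, a ubiquitin-like modifier, had 15.9 and 25.5 tags at day 2, against 31.0 and 82.7 tags at 4 hours (-1.29, limma adjusted p 0.364). Day 2 was below 4 hours in every library of both genes, and RNA was lower by 3.78 for Ifit3 and by 3.72 for Isg15 on the log2 scale.

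Preadipocyte and matrix genes had a median of 0.14 over 28 promoters, with 0 called, 8 apart upward and 5 downward. Thy1, a surface marker of fibroblasts, had 77.2 and 85.8 tags at day 2, against 190 and 111 tags at 4 hours (-0.83, limma adjusted p 0.605). Among their 90 distal peaks of at least 20 tags 2 fell, near Col6a1 (-2.87, limma adjusted p 0.00552) and near Thbs2 (-2.24, limma adjusted p 0.0382). That count is near the 2.03% called lower over all distal peaks of at least 20 tags. The Thbs2 peak had 13.6 and 9.28 tags at day 2, against 57.0 and 56.8 tags at 4 hours, and the RNA of this thrombospondin gene was lower by 4.22 on the log2 scale.

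Immediate-early, cAMP and glucocorticoid genes had a promoter median of 0.22 over 26 genes with 0 called, and 2 of their 87 distal peaks of at least 20 tags fell. This is near the 2.03% called lower over all distal peaks of at least 20 tags, so the 2 are given as single peaks. Fosl2 encodes a partner of JUN in AP-1. Its peak, 100 kb from the start at chr5:32338134-32338634 (mm9), had 0 and 7.73 tags at day 2, against 40.2 and 51.7 tags at 4 hours (log2 change -3.98, SE 0.75, limma adjusted p 6.57e-04), and its RNA was lower by 2.66 on the log2 scale. Ier2, an immediate-early gene, had a peak with 0 and 5.41 tags at day 2 and 30.2 and 18.1 tags at 4 hours (-3.27, limma adjusted p 0.00664). Zbtb16, a glucocorticoid-induced factor, had a promoter peak with 245 and 181 tags at day 2, against 112 and 74.9 tags at 4 hours, apart but not called (1.19, limma adjusted p 0.445).

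Lists of growth and housekeeping genes gave 0 called promoters each, with medians from 0.15 to 0.53 against 0.36 for all promoter genes. Without 4 hour replicate 2 the median of all promoter genes was -0.01 and the medians of these lists lay between -0.16 and 0.01. DNA replication genes had a median of 0.32 over 38 promoters (36 positive), mitosis genes 0.38 over 38, genes of G1/S control 0.53 over 21, and CDK inhibitors and p53 targets 0.24 over 14. E2f2, a cell cycle transcription factor, had 168 and 109 tags at day 2, against 88.8 and 36.2 tags at 4 hours (1.24, limma adjusted p 0.395). Oxidative phosphorylation was at 0.29 over 31 promoters, cytosolic ribosomal proteins at 0.15 over 34, ribosome biogenesis at 0.33 over 22, cholesterol synthesis at 0.40 over 22, heat shock and unfolded protein genes at 0.28 over 20 and the core clock at 0.27 over 14. Rpl14 had 477 and 296 tags at day 2 and 316 and 134 tags at 4 hours, with overlapping groups (0.86, limma adjusted p 0.670). In these 10 lists, 1 distal peak of at least 20 tags was called, near Rfc1, and it rose (2.86, limma adjusted p 0.0168). It was 1 of 21 such peaks of the DNA replication list, against 0.476% called higher over all distal peaks of at least 20 tags.

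Other writers and erasers of the mark had a median of 0.47 over 16 promoters with 0 called. Kmt2c, a methyltransferase for the same lysine, had 436 and 288 tags at day 2, against 270 and 114 tags at 4 hours, apart but not past the test (1.01, limma adjusted p 0.590). Within the KDM5 family, Kdm5b had 220 and 145 tags at its promoter at day 2, against 150 and 87.8 tags at 4 hours (0.64, limma adjusted p 0.702). Kdm5c had 209 and 160 tags at day 2, against 232 and 137 tags at 4 hours (0.04, limma adjusted p 0.987). Both genes had overlapping groups. Of the 4 genes in the family list, Kdm5b and Kdm5c were the 2 matched by name to a promoter peak.

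The strongest promoter peaks did not pass either, and 2 of them had a high input. Their standard errors, set by the trend, were 1.69 for Mdm2, 1.31 for Phf5a and 1.31 for Cwc22. The median for promoter peaks of at least 20 tags was 0.66, so only a very large change could have passed here. Mdm2, which encodes the ubiquitin ligase of p53, had 4864 and 2012 tags at day 2, against 2643 and 3090 tags at 4 hours, with 311 in the input (log2 change 0.13, limma adjusted p 0.980). Cwc22, a splicing factor gene, had 2447 and 1015 tags at day 2, against 1372 and 1635 tags at 4 hours, with 192 in the input (0.07, limma adjusted p 0.986). Phf5a, another splicing factor gene, had 27.0 in the input and 2315 and 1239 tags at day 2, against 1486 and 1436 tags at 4 hours (0.21, limma adjusted p 0.956). In all 3 the day 2 replicates differed more from each other than the 4 hour replicates did.

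Promoter sequence went with the change as follows. Of the 11076 promoter genes, 6546 had 1 promoter in the RefSeq table (GRCm38.p6), and 5668 of these had a peak of at least 20 tags. The median promoter of this group held 17 CpG in the 250 bases before the start, against 5 over all 22862 promoters. The median KDM5A change was 0.16 with 0 to 4 CpG (275 genes), 0.28 with 5 to 9 (744), 0.33 with 10 to 14 (1162), 0.35 with 15 to 19 (1301) and 0.44 with 20 or more (2186). Both day 2 libraries were below both 4 hour libraries at 20% of promoters in the poorest group and 1.33% in the richest. The CpG-poor promoters were also weaker, with a median of 98.3 tags against 212 in the richest group. Adipoq and Retn, with 0 and 2 CpG, thus gained KDM5A within the group whose median changed least. That group held 2 promoters called higher and 3 called lower. Plin1, with 1 CpG, had a mean of 19.96 tags over the 6 libraries and so was in none of these groups.

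Motifs were counted in the same windows, on both strands, for the quartiles of the KDM5A change. The quartiles also differed in base content, with medians of 19 CpG and 62.8% GC in the highest and 14 CpG and 58.8% GC in the lowest. Over all promoters these were 5 CpG and 52% GC. The part of base content in the motif shares was not tested. CCGCCC was in 67.04% of promoters of the highest quartile and 60.55% of the lowest, against 32.4% of all promoters. CCAAT was in 32.9% and 41.5% (34.7% of all), and the AP-1 letters TGAGTCA in 1.62% and 4.38% (4.47% of all). The ETS letters CCGGAAG were in 14.8% and 13.4% (7.09% of all), the E-box CACGTG in 9.32% and 8.33% (5.92%), TGACGTCA in 3.53% and 2.54% (1.61%) and TTTGAA in 8.19% and 9.46% (16.7%). The E2F letters TTTCCCGC were in 1.55% and 2.19% (0.94%) and TTTGGCGC in 0.49% and 1.34% (0.42%), the C/EBP letters TTGCGCAA in 0.07% and 0.35% (0.18%), and GAAANNGAAA in 2.05% and 2.54% (3.11%). A match in a window is a description of its letters and not a bound site.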

How the data were processed

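KDM5A chromatin immunoprecipitation was measured in 2 libraries each of day 2, 4 hours and day 0 of 3T3-L1 differentiation, with 1 input library. The deposited signal is the number of tags per merged peak in each library, per the file headers. The values were whole multiples of 1 step per library, within 0.1 of a step, and the step was read as 1 read scaled to a common total. That total is not given in the sources used here and was taken as 10000000, the default of HOMER, so library totals in reads rest on it and ratios between libraries do not. The deposited distance score is the authors' signed distance in bp to the nearest gene start, per the file headers, on mm9. RNA values are log2 tags per kb, deposited by the authors. The submitters' processing notes list STAR and HOMER, and also Bowtie2 0.12.8, Subread and DESeq2. From the deposited H3K4me3 table, which is of promoter peaks, only peak positions were used, and overlap meant at least 1 bp. KDM5C was measured at day 2 in 2 libraries.

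log2(tags + 1) was fitted with limma 3.58.1 (R 4.3.3) over all 87525 peaks with a mean-variance trend and Benjamini-Hochberg adjustment, and calls used an adjusted p under 0.05. Alternatives ran edgeR 4.0.16 (quasi-likelihood test) and DESeq2 1.42.0 on the recovered reads, other scalings, filters, promoter limits and left-out replicates, and the scripts were tested on simulated data. Genes were named as the called peaks with the largest changes whose groups did not overlap and whose mean over the 4 libraries was at least 20 tags, the strongest promoter peaks and the 2 genes of each list with the smallest p; further genes named in the lists were chosen after their values were seen. The peak classes, genes and 17 lists were chosen with earlier results of these data known. Library totals ranged from 3.87 to 12.9 M reads (M, 1e6) in the compared libraries.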

Additional observations from a re-analysis of the deposited data

How the results depend on the processing

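Counts of called peaks moved with most choices, while the class medians and the promoter share moved by less than the spread between replicates. Counts are given in the order KDM5A promoter peaks higher at day 2 than at 4 hours, promoter lower, distal higher and KDM5A distal peaks lower at day 2 than at 4 hours, against 10, 12, 98 and 411. DESeq2 gave 2, 2, 5 and 16, edgeR with TMM gave 30, 38, 388 and 1201, and edgeR with library totals gave 5, 3, 305 and 279. Median centring gave 442, 47, 475 and 1650, and quantile normalization gave 300, 121, 424 and 1314. Input subtraction gave 18, 15, 98 and 661, and a fit of the 4 compared libraries alone gave 23, 17, 160 and 541. A pseudocount of 5 tags gave 10, 9, 181 and 385, and a filter at 20 mean tags gave 8, 9, 28 and 202. A promoter limit of 500 bp gave 6 and 6 promoter peaks, and one of 3000 bp gave 17 and 45. limma without the mean-variance trend, and libraries thinned to equal depth, gave 0, 0, 0 and 0, with 10200 and 6836 peaks at an unadjusted p under 0.05. The cause of these moves was not tested.

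Leaving out 1 replicate in turn gave 0 to 104, 0 to 14, 2 to 966 and 11 to 661 peaks. The promoter median then ranged from -0.01 to 0.72, the median of all distal peaks from -0.12 to 0.32 and the share difference from 3.18 to 9.88 points. With the replicate block the promoter counts were 105 and 45, and the distal counts 448 higher and, for KDM5A distal peaks lower at day 2 than at 4 hours, 1727. The labels number the experiments 1 and 2 at each time but do not say that libraries of the same number were paired. Replicate differences correlated over peaks at 0.05 for day 2 and 4 hours, 0.08 for day 0 and day 2 and 0.33 for 4 hours and day 0. Whether the libraries are paired is therefore not settled here. Over all peaks, quantile normalization shifted the median log2 change by -0.16 and TMM by -0.11. Thinning, the removal of peaks with at least 20 input tags and the removal of peaks whose replicates differed over 5 times were chosen after seeing the data. The last left 7, 12, 71 and 391 calls.

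Of the 21 called peaks with the largest changes, DESeq2 called 1, and each kept its sign in all settings run. Depth limits the day 2 replicate 1 and 4 hour replicate 2 libraries most, where 3 reads are worth 6.81 and 7.75 tags.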
